A study of Mus musculus with 9 samples.

Results

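The comparison described here is that of MC3T3-E1 cells, a clonal mouse osteoblast line derived from calvaria, treated with 10 µM SB216763 for 14 days against control MC3T3-E1 cells. SB216763 is a small-molecule inhibitor of glycogen synthase kinase 3 (GSK3). In the study it came out of a screen for compounds that switch on an endothelial reporter gene in osteoblasts, and the comparison asks how the osteoblast transcript profile differs once it is given. The members are 6 of the 9 RNA-Seq libraries of the series, 3 per group, taken by the treatment entry in the sample labels and fitted on their own. The remaining 3 libraries are from mouse pulmonary endothelial cells (ECs) that received no treatment, and they enter only as levels set beside the osteoblasts. All osteoblast libraries come from 1 cell line, the labels do not state how long the controls were cultured, and nothing states that replicates were separate cultures, so that p-values measure the spread between libraries, which may be technical.

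GSK3 is a kinase that is active in resting cells and marks many of its substrates for degradation. Its best known substrate in bone cells is β-catenin, the transcriptional arm of the canonical Wnt pathway, which acts with TCF and LEF factors on a set of feedback genes such as Axin2. Other substrates include glycogen synthase, MYC, cyclin D, sterol regulatory proteins and the TFE family of transcription factors that serve lysosome genes. The mRNA of the kinases themselves moved little: Gsk3a had a log2 fold change of 0.01 ± 0.05 (SE) and Gsk3b of -0.18 ± 0.06, with adjusted p-values of 0.85 and 0.015, and Ctnnb1, which encodes β-catenin, of 0.21 ± 0.04 with an adjusted p of 9.5e-04, which was 0.018 without treated replicate 1.

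The libraries held between 30990107 and 68946333 counts. Their cell identity was checked by marker levels summed over a list, in CPM, which are counts scaled to the size of the library and normalized by TMM. The 8 osteoblast markers summed to between 45031 and 60921 CPM in the controls, 8244 and 8425 CPM after SB216763, and 45.0 and 63.9 CPM in ECs, and all 8 fell. The 10 endothelial markers summed to between 2.71 and 3.46 CPM in the controls, 2.63 and 3.12 CPM after SB216763 and 6813 and 7001 CPM in ECs. None of the 4 endothelial markers that could be tested, Cdh5, Pecam1, Kdr and Esam, passed the test. The 6 osteocyte markers summed to between 88.8 and 105 CPM in the controls and 158 and 171 CPM after SB216763, where Dmp1 rose and Sost, Fgf23 and Mepe had at most 2 counts in any osteoblast library. Most of the control sum was Pdpn, at 100, 104 and 87.8 CPM in the controls and 102, 104 and 91 CPM after treatment. Phex stayed under 1 CPM, and neither Pdpn nor Phex passed the test. Skeletal muscle, neuron and adipocyte markers summed to less than 1 CPM in every osteoblast library, and epithelial markers to at most 1.02 CPM. Macrophage and blood markers went from a range of 26.3 to 28.8 CPM to one of 8.6 to 10.2 CPM, most of it Lyz2, while Ptprc, Spi1 and Tyrobp had at most 11 counts in any osteoblast library. The share of counts on mitochondrial genes was 0.304% to 0.484% in the controls and 0.831% to 2.26% after treatment, highest in treated replicate 3. Its part in the results below was not tested.

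The change reached most of the transcriptome. Of 13902 genes tested, 4713 (33.9%) were higher and 4907 (35.3%) lower after SB216763 at an FDR under 0.01. At least a 2-fold change at that FDR was found for 1539 higher genes (11.1%) and 1945 lower genes (14.0%), and at least a 4-fold change for 517 (3.72%) and 849 (6.11%). The moderate changes were therefore the larger body: 3174 genes rose and 2962 fell by less than 2-fold, and 1022 rose and 1096 fell by between 2-fold and 4-fold. In the rest of the text, "rose" and "fell" are used of genes past an FDR of 0.01 in edgeR's quasi-likelihood test, and each list is read against the shares just given. The libraries did not overlap for 5499 genes that were higher (39.6%) and 5148 that were lower (37.0%).

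The direction of small changes rests on the scaling. The controls spent more of their reads on a few genes (the 50 most abundant took 18.5% to 19.4% of counts, against 13.3% to 14.7% after treatment), and TMM corrects for this. With library size alone, the median log2 fold change of all genes moved from -0.004 to 0.22, and the genes changed at least 2-fold split into 2225 higher and 1510 lower, 59.6% higher in place of 44.2%. List medians below are given under TMM, and where a printed median turns sign under library size alone this is stated beside it.

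**Figure D1:**
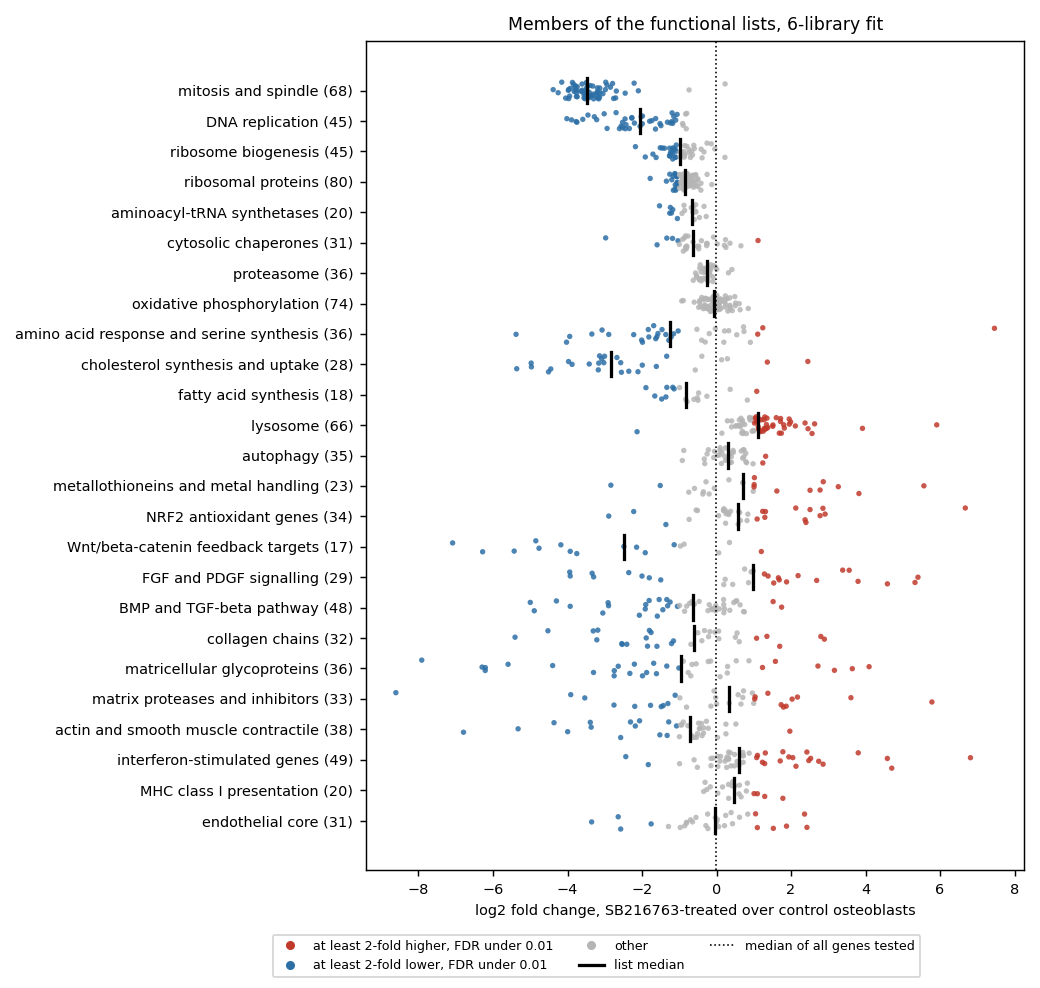
Log2 fold change (x axis) of every tested member of 25 functional lists (rows, number tested in parentheses). Each point is 1 gene, colored where it changed at least 2-fold at an FDR under 0.01, the bars are list medians and the dotted line is the median of all genes. The mitosis list is shifted as a block with a median of -3.48, ribosomal proteins form a tight cluster near -0.85, the lysosome list is shifted to the right with a median of 1.13, and the endothelial list scatters around 0.

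Cell division genes had the lowest median of all lists. Of 68 genes of mitosis and the spindle, 67 fell and 66 fell at least 4-fold, with a median log2 fold change of -3.48. All 45 genes of DNA replication fell, 40 of them at least 2-fold and 24 at least 4-fold, with a median of -2.05. In bulk libraries, fewer cells in division and less of these RNAs per cell cannot be told apart. The median level of the mitosis list in the single libraries, relative to the control mean, was -3.51, -3.41 and -3.42 log2 units after treatment and 0.02, 0.06 and -0.06 in the controls.

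Plk1 encodes the polo-like kinase that drives entry into and exit from mitosis. It stood at 56.1, 57.4 and 53.5 CPM in the controls and 2.39, 3.32 and 2.43 CPM after treatment (log2 fold change -4.38 ± 0.09 SE, adjusted p = 2.1e-11), and the libraries of the groups were far apart. Rrm2, the small subunit of ribonucleotide reductase that supplies DNA precursors, was at 134, 144 and 124 CPM in the controls and 8.17, 8.67 and 8.55 CPM after treatment (-4.02 on the log2 scale). Ccna2, the cyclin of S phase and G2, went from 131 ± 8.4 to 7.54 ± 0.36 CPM (mean ± SD, n = 3 as in the means that follow), Top2a, the topoisomerase that untangles chromosomes, from 326 ± 26 to 28.9 ± 2.46 CPM, and the proliferation marker Mki67 from 213 ± 35.9 to 20.8 ± 2.74 CPM. Mcm5 and Mcm6, subunits of the replicative helicase, fell by 3.89 and 2.61 on the log2 scale. Pcna, the sliding clamp, which also serves DNA repair, fell less, from 241 ± 15.7 to 111 ± 8.03 CPM.

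The members that did not follow were named after their values were seen. Pttg1, which encodes securin, was the mitosis gene that did not fall, at 12.9, 14.2 and 12.6 CPM in the controls and 15.6, 17.7 and 14.4 CPM after treatment, a difference with no overlap that missed the cutoff (adjusted p = 0.016). Cdc25b, a phosphatase that activates mitotic kinases, fell by less than 2-fold, with a log2 fold change of -0.74. Histone genes of the replication-dependent clusters, whose symbols start with Hist, fell at least 2-fold in 19 of 29 tested, with a median of -2.47, and 2 rose at least 2-fold. Inhibitors of cyclin-dependent kinases and pocket proteins, which hold cells out of division, moved little by comparison. Of 7 genes of that list, 4 fell, 2 rose and none rose 2-fold: Cdkn1b (p27) fell from 136 ± 13.7 to 63.4 ± 1.31 CPM, Cdkn1a (p21), a target of p53, rose from 399 ± 28.5 to 481 ± 26.4 CPM, a log2 fold change of 0.24 that missed the cutoff without control replicate 3 or treated replicate 1, and the pocket protein Rbl2 rose by 0.55. Among 30 targets of p53, 14 rose and 10 fell, with 6 and 3 at least 2-fold, a share above the background for genes that rose (20%) and near it for those that fell (10%). Myc, the growth regulator that GSK3 marks for degradation as a protein, was named after its values were seen and fell as mRNA from 224 ± 12.8 to 17.1 ± 0.912 CPM (log2 fold change -3.75 ± 0.05 SE, adjusted p = 3.0e-12).

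Many promoters of mitosis genes are known to carry the cell cycle homology region, an element bound by repressor complexes in resting cells. Its core letters TTTGAA, read on both strands in the 250 bases before and 50 bases after the start of each RefSeq transcript model (GRCm38.p6), were in 40 of the 62 promoters matched to 57 of the 68 genes (64.5%), against 17.9% of all 32851 promoters and 11.9% of the 12710 promoters of genes tested. The NF-Y box CCAAT was in 72.6% of them, 37.4% of all and 37.9% of those of genes tested. The stretches of 60 bases that follow, all before the start, are from the 3 matched genes with the largest decrease that held these letters there. They are shown because this list fell furthest, with the letters (in either orientation) in capitals: Cdc20, an activator of the anaphase-promoting complex at chr4:118437344-118437403 (- strand), Kif11, the spindle motor Eg5 at chr19:37376322-37376381 (+ strand), and Kif2c, a motor that shortens microtubules at chr4:117178843-117178902 (- strand).
Cdc20: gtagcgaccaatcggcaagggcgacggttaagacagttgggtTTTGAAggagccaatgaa
Kif11: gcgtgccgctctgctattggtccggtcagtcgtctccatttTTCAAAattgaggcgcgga
Kif2c: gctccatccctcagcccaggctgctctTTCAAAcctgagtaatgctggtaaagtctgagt
These genes fell by 4.05, 3.98 and 3.94 on the log2 scale. In Cdc20 and Kif11 the letters begin 18 and 19 bases before the start, and in Kif2c 103 bases before it. The E2F letters TTTGGCGC and TTTCGCGC were in 14.3% and 19% of the 42 promoters matched to 36 of the 45 DNA replication genes, in 0.514% and 0.323% of all promoters, and in 0.936% and 0.614% of those of genes tested. Motifs were chosen for the factors known to act on each list, after other spellings had been counted, and a match of letters is a description of the window only.

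**Figure D2:**
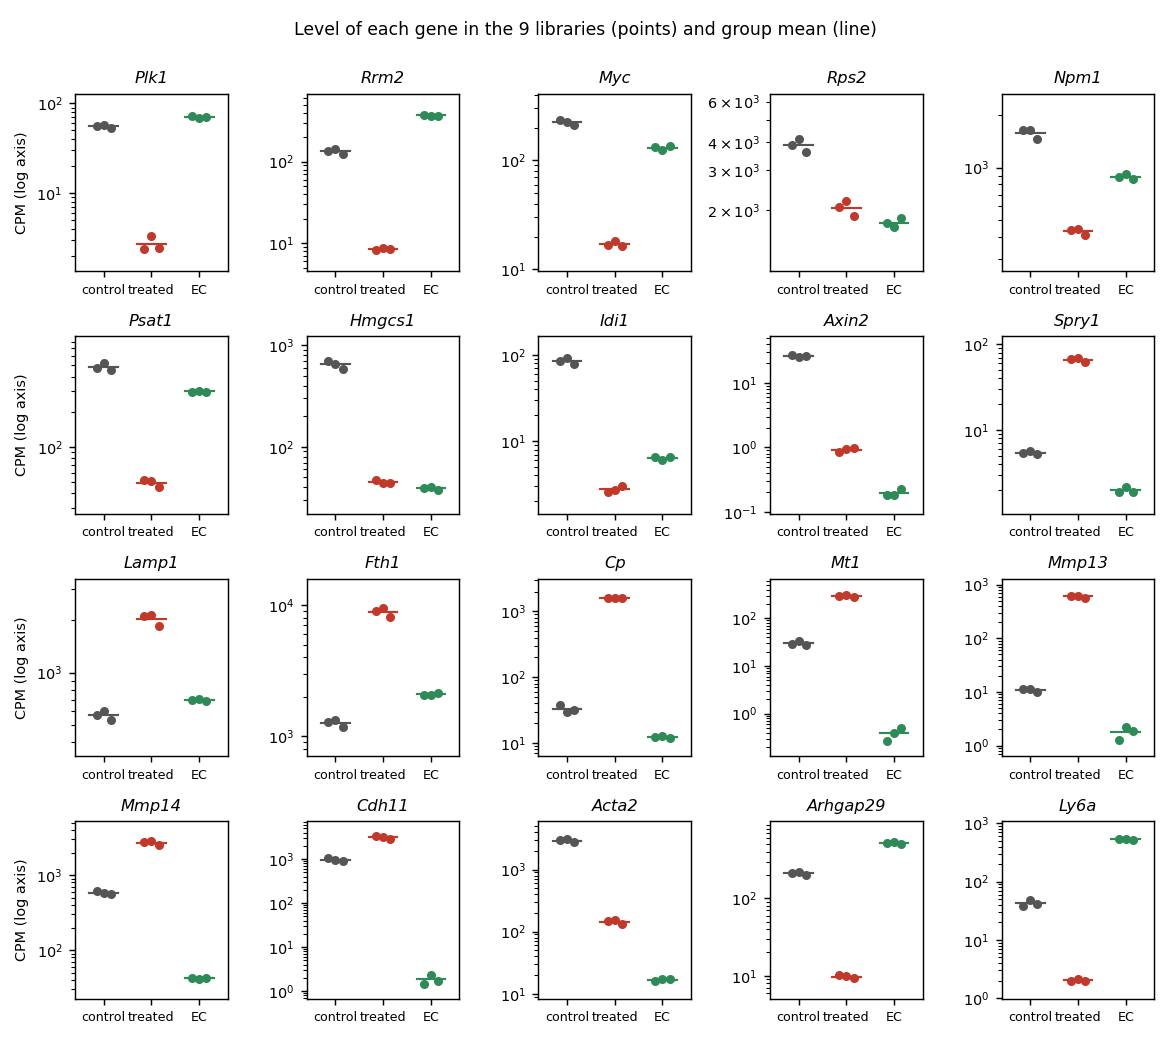
Level of 20 genes named in the text in control osteoblasts, SB216763-treated osteoblasts and ECs (x axis), in TMM-normalized CPM on a log y axis. Points are the 3 libraries of each group and lines are group means. Control and treated libraries do not overlap in any panel, and for Rrm2, Cp, Mt1, Mmp13, Mmp14, Cdh11, Spry1, Arhgap29 and Ly6a the EC level lies at least 1 log2 unit on the other side of the controls.

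The machinery of protein synthesis shifted by a moderate amount that a 4-fold cutoff would miss. Of 80 ribosomal protein genes, 79 fell but 17 by at least 2-fold (21.2%), and none by 4-fold, with a median log2 fold change of -0.85 and quartiles of -0.96 and -0.72. Rps2 was at 3889, 4128 and 3623 CPM in the controls and 2069, 2208 and 1891 CPM after treatment (log2 fold change -0.95 ± 0.06 SE, adjusted p = 8.6e-08), Rplp0 went from 3333 ± 283 to 1639 ± 169 CPM and Rpsa from 2210.3 ± 158 to 891 ± 67.8 CPM. The gene that did not pass was Rps27 (-0.13, adjusted p = 0.057). Many ribosomal protein genes have near-identical processed pseudogenes, and how the counting shared such reads is not given in the sources used here. Levels of single members are uncertain for this reason. With library size alone the median was -0.63.

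Ribosome biogenesis genes, which make and fold ribosomal RNA in the nucleolus, fell in 42 of 45 and at least 2-fold in 22, with a median of -0.98. Npm1, nucleophosmin, fell from 1582 ± 105 to 430.2 ± 19.8 CPM, Ncl, nucleolin, from 1486 ± 106 to 702 ± 16.4 CPM, and Dkc1, the pseudouridine synthase of small nucleolar RNPs, from 95.8 ± 3.57 to 21.7 ± 1.59 CPM. Imp4 was the member that rose, by 0.23. Of the host genes of small nucleolar RNAs, for which no list was counted, 3 were chosen after their values were seen: Gas5 was at 424, 422 and 390.2 CPM in the controls and 110, 115 and 117 CPM after treatment, Snhg12 had a log2 fold change of -2.49 ± 0.05 and Snhg1 of -1.68 ± 0.06. All 20 aminoacyl-tRNA synthetases tested fell, 6 of them at least 2-fold, with a median of -0.66. Gars, the glycyl-tRNA synthetase, fell from 659 ± 30.3 to 234 ± 7.74 CPM.

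Chaperones of the cytosol and mitochondria fell in 23 of 31 and at least 2-fold in 5, with a median of -0.63. Tcp1, a subunit of the chaperonin that folds actin and tubulin, went from 575 ± 33.1 to 233 ± 9.5 CPM, and Hspa8, the constitutive HSP70, from 1677 ± 80.7 to 964 ± 47.4 CPM. Dnajb4 was the member that rose 2-fold, with a log2 fold change of 1.11. The proteasome list fell in 26 of 36, with no member past 2-fold and a median of -0.27, which was -0.04 with library size alone. Its risers were Psme1 and Psme2, the subunits of the activator that interferon induces. The secretory list fell in 34 of 56 and at least 2-fold in 4, with a median of -0.25, which was -0.03 with library size alone. Its largest decreases were in Pdia5 (-2.39), a disulfide isomerase, and Creb3l1 (-1.52), a factor of the endoplasmic reticulum that osteoblasts need for collagen output.

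Energy metabolism stayed close to the middle. Among 74 nuclear genes of oxidative phosphorylation 18 rose and 24 fell, none by 2-fold, with a median of -0.06 that was 0.17 with library size alone. The TCA cycle list had 4 that rose and 17 that fell, with a median of -0.25, which was -0.02 with library size alone. In each direction 1 passed 2-fold, Me3 (2.28) and Me2 (-1.58), both malic enzymes. Transcripts encoded in mitochondria spread more widely between libraries. The mRNA of mt-Co1, a core subunit of complex IV, was at 1174, 1011 and 1647 CPM in the controls and 2771, 2619.8 and 6419.6 CPM after treatment (log2 fold change 1.6 ± 0.34 SE, adjusted p = 1.5e-03), with treated replicate 3 above the others. mt-Cytb and mt-Nd5, of complexes III and I, had log2 fold changes of 1.44 ± 0.36 and 2.0 ± 0.35, the latter named after its values were seen. Without that replicate the values of mt-Co1, mt-Cytb and mt-Nd5 were 1.02, 0.81 and 1.41, and without control replicate 1 mt-Cytb missed the cutoff (edgeR adjusted p = 0.017).

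Amino acid supply genes fell with the synthetases. Of 36 genes of the amino acid response and serine synthesis, 25 fell and 21 at least 2-fold (58.3%), with a median of -1.25. Psat1, an enzyme of serine synthesis, was at 479, 523 and 460.2 CPM in the controls and 51.8, 50.6 and 44.9 CPM after treatment (log2 fold change -3.35 ± 0.06 SE, adjusted p = 1.1e-11). Pycr1, the last step of proline synthesis, fell from 93.6 ± 4.68 to 5.88 ± 0.403 CPM, Cth, cystathionine gamma-lyase, from 15.5 ± 0.834 to 0.374 ± 0.137 CPM and Asns, asparagine synthetase, named after its values were seen, from 479 ± 24.8 to 122 ± 9.25 CPM. The list did not move as one. Atf4, the transcription factor at its head, rose by 0.33 on the log2 scale, Ddit3 (CHOP) by 1.11 and Cebpb by 1.24, whereas the related factor Atf5 had a value of -0.2 that missed the cutoff without any of 5 single libraries and turned sign with library size alone.

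The letters TGATGCAA of the amino acid response element, which binds ATF4 with C/EBP partners, were in 18.4% of the 38 promoters matched to 31 of the 36 genes, 0.895% of all promoters and 0.566% of those of genes tested. Of the members considered, the 3 with the largest decrease that held it before the start are printed, with the element in capitals. These genes are Pycr1 at chr11:120643818-120643877 (- strand), Fgf21, a secreted metabolic factor at chr7:45615596-45615655 (- strand), and Slc7a11, the cystine transporter at chr3:50443627-50443686 (- strand).
Pycr1: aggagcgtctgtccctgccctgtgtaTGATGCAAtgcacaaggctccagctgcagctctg
Fgf21: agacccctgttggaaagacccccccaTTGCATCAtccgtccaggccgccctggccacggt
Slc7a11: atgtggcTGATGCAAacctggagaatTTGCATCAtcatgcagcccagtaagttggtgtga
Slc7a11 holds the letters in both orientations within the 60 bases. The log2 fold changes of Pycr1 and Slc7a11 were -4.03 and -2.22. Fgf21 had 28, 20 and 18 counts in the controls and 0, 1 and 2 counts after treatment, too few to give a fold.

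The sterol pathway had the lowest median of the metabolic lists. Of 28 genes of cholesterol synthesis and uptake 24 fell, 22 at least 2-fold and 19 at least 4-fold, with a median log2 fold change of -2.84. Single treated libraries stood at -2.76, -2.8 and -2.81 log2 units relative to the control mean, a spread far smaller than the shift. Hmgcs1, the synthase that opens the pathway, was at 701, 655 and 589 CPM in the controls and 47, 44.5 and 43.8 CPM after treatment (log2 fold change -3.88 ± 0.06 SE, adjusted p = 4.3e-12). Idi1, an isoprenoid isomerase, was at 85, 91.6 and 78.2 CPM in the controls and 2.57, 2.71 and 3.03 CPM after treatment (-4.97 on the log2 scale), and the groups were far apart for both genes. Srebf2, the main transcription factor of the pathway, was looked up after its values were seen and fell by 2.35 on the log2 scale. The 3 members that rose were Lpin1, a phosphatidate phosphatase (2.45), Insig2, which retains sterol sensors in the endoplasmic reticulum (1.36), and Srebf1 (0.29).

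Fatty acid synthesis fell in 15 of 18, 7 at least 2-fold and none 4-fold, with a median of -0.81. Scd2, a stearoyl-CoA desaturase, went from 2223 ± 55 to 723 ± 33.1 CPM and Fads2 from 199.9 ± 12.7 to 73.8 ± 5.06 CPM, while Elovl6, an elongase, rose by 1.08. Fatty acid oxidation had 14 of 28 that rose and 4 that fell, with 2 at least 2-fold in each direction (7.14%), below the background. The sterol regulatory letters CACCCCAC were in 7.14% of the 28 promoters matched to 21 of the 28 cholesterol genes, 2.87% of all and 3.07% of those of genes tested, and the NF-Y box in 67.9%.

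Lysosome genes rose almost as a whole. Of 66 tested, 64 rose and 40 at least 2-fold (60.6%), with a median log2 fold change of 1.13 and single treated libraries at 1.2, 1.27 and 1.06. Lamp1, the main membrane protein of the lysosome, was at 575, 599.5 and 533 CPM in the controls and 2107, 2143 and 1848 CPM after treatment (log2 fold change 1.8 ± 0.06 SE, adjusted p = 4.8e-10). Psap, the precursor of the saposins, went from 1064 ± 49.5 to 2758 ± 139 CPM, Hexa, a hexosaminidase, from 107 ± 5.98 to 646 ± 49.2 CPM, and Neu1, the lysosomal sialidase, from 20.5 ± 0.549 to 130 ± 5.59 CPM. Gpnmb, a glycoprotein of stressed lysosomes that is also expressed by osteoblasts, rose from 1.02 ± 0.162 to 60.8 ± 3.45 CPM. The exceptions were Cln3, at under 1 CPM, which fell (-2.13), and Ids, a sulfatase, which did not pass (0.14, adjusted p = 0.12). The log2 fold change of Cln3 was -3.33 without treated replicate 3. Both were named after their values were seen, as were the transcription factors Tfeb and Tfe3, which act on lysosome genes and rose by 0.76 and 0.61.

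The palindrome TCACGTGA, a core of the CLEAR element to which TFE factors bind, was in 13.1% of the 61 promoters matched to 50 of the 66 genes, 0.974% of all and 1.83% of those of genes tested. It is in capitals in the 3 with the largest increase, of the members considered, that held it before the start. These genes are Mcoln1, the lysosomal calcium channel TRPML1 at chr8:3500447-3500506 (+ strand), Ctsd, cathepsin D at chr7:142387893-142387952 (- strand), and Ctsa, the protective cathepsin A at chr2:164833713-164833772 (+ strand).
Mcoln1: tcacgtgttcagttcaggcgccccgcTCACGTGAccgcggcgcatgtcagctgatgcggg
Ctsd: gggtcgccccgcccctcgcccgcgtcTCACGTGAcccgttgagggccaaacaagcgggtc
Ctsa: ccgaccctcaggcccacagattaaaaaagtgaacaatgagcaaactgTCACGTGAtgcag
These rose by 1.69, 1.51 and 1.38 on the log2 scale, and Ctsd was at 208, 223 and 197 CPM in the controls and 616, 647 and 576 CPM after treatment.

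Autophagy genes changed less. Of 35, 20 rose, 6 fell and 2 rose at least 2-fold, with a median of 0.3: Map1lc3b, which marks autophagosomes, from 137 ± 10.9 to 350.4 ± 26.1 CPM and Atg12 from 28.4 ± 2.28 to 68.8 ± 4.2 CPM. Sqstm1 (p62), a receptor for cargo, rose from 582 ± 29.8 to 1175 ± 57.6 CPM. Wipi1 and Optn fell by 0.88 and 0.92 on the log2 scale.

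Iron and metal genes changed in both directions. In the list of metallothioneins and metal handling 14 of 23 rose, 10 at least 2-fold (43.5%), and 8 fell, 2 at least 2-fold, with a median of 0.71. Fth1, the ferritin heavy chain, was at 1292, 1335 and 1167 CPM in the controls and 9048, 9520 and 8129 CPM after treatment (log2 fold change 2.78 ± 0.06 SE, adjusted p = 4.1e-11) and took more reads than any other gene that rose 2-fold. Ftl1, the light chain, went from 216 ± 28.2 to 1261 ± 90.9 CPM, Slc40a1, the iron exporter ferroportin, from 1.65 ± 0.161 to 24.2 ± 1.84 CPM, and Cp, ceruloplasmin, the ferroxidase that works beside it, from 33.1 ± 3.87 to 1605 ± 21.4 CPM. Mt1, a metallothionein, was at 29.4, 32.8 and 27.8 CPM in the controls and 300.2, 314 and 276 CPM after treatment. Steap1 and Slc39a10, a metalloreductase and a zinc importer, fell at least 2-fold, by 2.84 and 1.51 on the log2 scale. Ferritin genes have processed pseudogenes, which makes their exact levels uncertain.

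The antioxidant list of NRF2 overlaps this group. Of 34 genes 26 rose, 12 at least 2-fold (35.3%), with a median of 0.59. Hmox1, heme oxygenase, went from 80.7 ± 5.97 to 599 ± 35.3 CPM, Nqo1, a quinone reductase, from 21.1 ± 1.45 to 114 ± 10.0 CPM and Mgst1, a membrane glutathione transferase, from 0.12 ± 0.0207 to 12.4 ± 1.15 CPM. The 3 members that fell 2-fold were Slc7a11, Slc6a9 and Me1, the first and second of which are also in the amino acid list. In the battery of the aryl hydrocarbon receptor, 7 of 11 rose, 6 at least 2-fold, and 3 fell, 2 at least 2-fold. Aldh3a1, an aldehyde dehydrogenase, rose from 5.47 ± 0.203 to 59.5 ± 3.53 CPM and Tiparp, a feedback repressor, from 41.1 ± 2.25 to 143 ± 3.24 CPM, while the receptor gene Ahr itself fell by 0.6. The members that fell 2-fold, named after their values were seen, were its repressor Ahrr and the retinal dehydrogenase Aldh1a3. Nqo1 belongs to both lists, Nfe2l2, which encodes NRF2 itself, rose by 1.31, and Cyp1b1, a P450 of this battery, rose by 0.39.

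Genes that report β-catenin activity in most tissues fell. Of 17 feedback targets of the Wnt pathway 14 fell, 12 at least 2-fold (70.6%) and 10 at least 4-fold, with a median of -2.49 and treated libraries at -2.38, -2.34 and -2.63. Axin2, the scaffold that rebuilds the β-catenin destruction complex, was at 27, 24.8 and 26.3 CPM in the controls and 0.846, 0.931 and 0.974 CPM after treatment (log2 fold change -4.85 ± 0.1 SE, adjusted p = 2.1e-11). Rnf43, a ligase that removes Wnt receptors, fell from 23.9 ± 2.84 to 0.309 ± 0.12 CPM and Tcf7, a TCF factor, from 76 ± 5.37 to 1.8 ± 0.0976 CPM. Ccnd1, cyclin D1, fell by less than 2-fold, from 440 ± 19.2 to 230.3 ± 10.9 CPM. Lgr6, an R-spondin receptor, was the member that rose (1.2), and Znrf3 and Sp8 did not pass, with values of 0.06 and 0.35. These 3 were named after their values were seen. The measurements are of mRNA after 14 days and do not show the level or place of β-catenin. Of 6 secreted Wnt antagonists 3 rose and 3 fell. Wif1 fell from 54.8 ± 4.04 to 3.1 ± 0.0586 CPM and Sfrp2 from 177 ± 12.2 to 12.5 ± 1.24 CPM, both inhibitors that bind Wnt ligands, and Dkk3 rose by 0.68. The TCF letters CTTTGAA, which contain the TTTGAA counted above, were in 5.56% of the 18 promoters matched to 10 of the 17 genes, 5.14% of all promoters and 3.47% of those of genes tested.

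Fibroblast growth factors (FGFs) and platelet-derived growth factors (PDGFs) act through receptor tyrosine kinases and ERK. Of 29 genes of FGF and PDGF signaling 19 rose, 14 at least 2-fold (48.3%), and 8 fell, all of them at least 2-fold (27.6%), with a median of 0.99. Spry4, an intracellular inhibitor, went from 0.141 ± 0.047 to 6.6 ± 0.662 CPM, the ETS factors Etv5 and Etv1 from 9.42 ± 0.648 to 62.4 ± 4.89 CPM and 0.476 ± 0.0655 to 11.5 ± 1.05 CPM and Dusp4, a phosphatase of ERK, from 0.614 ± 0.179 to 9.1 ± 0.322 CPM. Spry1 and Dusp6, members of the list named after their values were seen, were at 5.45, 5.68 and 5.21 CPM in the controls and 66.4, 68.6 and 62.6 CPM after treatment for the first, and at a log2 fold change of 3.39 ± 0.05 for the second. Receptors were split: Fgfr1 and Pdgfrb rose by 0.93 and 1.54, while Fgfr2 fell from 891 ± 20.0 to 92.7 ± 4.39 CPM and Fgfr3 from 163 ± 5.4 to 32.6 ± 1.28 CPM.

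The BMP and TGF-β pathway fell in 27 of 48, 18 at least 2-fold (37.5%), and 2 rose 2-fold, with a median of -0.62. Bmp4, a bone morphogenetic ligand, fell from 158 ± 12.5 to 8.24 ± 0.832 CPM, Inhba, an activin subunit, from 89 ± 8.01 to 5.98 ± 0.366 CPM, and the antagonists Grem1 and Chrdl1 from 39.2 ± 1.3 to 1.34 ± 0.302 CPM and 852 ± 106 to 117 ± 11.8 CPM. The receptors Tgfbr3 and Acvr1b rose by 1.75 and 1.52. Id1, a direct target of SMAD1, rose by 0.75 from a low level, 4.86 ± 0.313 to 8.3 ± 0.392 CPM. In the Hedgehog list 6 of 12 fell, among them Ptch1, receptor and feedback target, from 77.3 ± 5.53 to 15.1 ± 0.408 CPM, and the co-receptor Gas1 rose by 1.19. Of 23 YAP and TAZ targets 14 fell and 9 rose, with 8 and 3 at least 2-fold: Ankrd1 fell from 15.7 ± 0.552 to 0.453 ± 0.163 CPM and Ccn1 from 218 ± 5.91 to 33.2 ± 0.546 CPM, while Gadd45a, which responds to growth arrest and DNA damage, rose from 7.2 ± 0.622 to 95.7 ± 6.37 CPM. Of 23 Notch genes 10 rose and 6 fell, with 7 and 3 at least 2-fold. The effector Hes1 rose from 6.67 ± 0.624 to 69.6 ± 4.09 CPM with 51.4, 51.9 and 50.8 CPM in ECs, and the ligase Dtx4 from 9.24 ± 0.3 to 41.7 ± 1.55 CPM. The modifier Lfng fell by 3.1, and Notch2 did not pass (-0.11, adjusted p = 0.48). Of 18 genes of the IGF system 9 fell and 5 rose, with 6 and 4 at least 2-fold. The ligand Igf2 fell from 6.1 ± 1.09 to 0.168 ± 0.091 CPM and the binding protein Igfbp2 was at 41.8, 46.1 and 41.3 CPM in the controls and 0.0584, 0.0798 and 0.46 CPM after treatment, highest of these in replicate 3, while Igfbp5, a binding protein of bone, rose from 77.2 ± 3.46 to 403 ± 12.8 CPM.

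Matrix genes changed in both directions. Of 32 collagen chains 18 fell, 15 at least 2-fold (46.9%), and 7 rose, 5 at least 2-fold. Col3a1, a fibrillar chain of soft tissue, went from 5204 ± 397 to 538 ± 24.1 CPM, Col12a1 from 1758 ± 508 to 78.1 ± 12 CPM and Col8a1 from 498 ± 37.6 to 12 ± 1.18 CPM, while the basement membrane chain Col4a6 rose from 28.1 ± 3.83 to 92.9 ± 1.12 CPM and Col11a2, a minor fibrillar chain of cartilage, from 4.07 ± 0.531 to 10.6 ± 2.35 CPM. The matricellular glycoproteins fell in 21 of 36 and rose in 9, with 18 and 6 at least 2-fold. Tnn, tenascin W of bone, fell from 156 ± 17.6 to 2.04 ± 0.167 CPM, whereas Edil3, Spon2 and Sparcl1 rose from 44.4 ± 7.11 to 408 ± 34.2 CPM, 8.01 ± 1.23 to 103 ± 5.23 CPM and 14 ± 1.09 to 245 ± 11.3 CPM, and Fn1, fibronectin, did not pass (0.1, adjusted p = 0.66). Small leucine-rich proteoglycans fell in 10 of 13, Fmod, which controls collagen fibril width, from 4218 ± 235 to 123 ± 4.64 CPM and Aspn from 581 ± 73.7 to 45.4 ± 5.37 CPM, while Lum rose by 0.7 and Bgn, biglycan, had a log2 fold change of -0.26, which was -0.03 with library size alone and missed the cutoff without treated replicate 1 (edgeR adjusted p = 0.013). Elastic fiber genes fell in 14 of 22 with a median of -0.93. Fbn2, the fetal fibrillin, fell from 130 ± 37.2 to 3.76 ± 0.507 CPM and Fbn1, the adult one, rose from 31.1 ± 7.8 to 90.3 ± 9.57 CPM. Ltbp3, which tethers latent TGF-β, rose from 84.5 ± 8.02 to 594 ± 6.58 CPM.

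Collagen processing was divided. Of 30 genes 15 fell and 9 rose, with 9 and 4 at least 2-fold and a median of -0.19 that turned to 0.03 with library size alone. Lox, which cross-links collagen, fell from 1315 ± 99.5 to 149.9 ± 9.77 CPM, and Serpinh1, the collagen chaperone, from 3071 ± 214 to 1228 ± 100.2 CPM. The propeptidases Adamts2 and Adamts14 rose from 133 ± 5.18 to 452 ± 16.3 CPM and 8.3 ± 0.854 to 65.4 ± 2.91 CPM. Matrix proteases and their inhibitors had 10 of 33 up and 10 down at least 2-fold, a share of 30.3% each way. Mmp13, the collagenase of bone turnover, was at 11.2, 11.2 and 9.81 CPM in the controls and 621, 626 and 576 CPM after treatment (log2 fold change 5.78 ± 0.05 SE, adjusted p = 9.3e-13), and the membrane protease Mmp14 at 616, 573 and 557 CPM in the controls and 2727, 2810.2 and 2530.1 CPM after treatment. Timp2 rose from 1551 ± 56.8 to 3237 ± 193 CPM, whereas the inhibitor Timp3 fell from 1369.7 ± 33.7 to 93.1 ± 4.76 CPM and Adam19 from 43.3 ± 1.13 to 3.8 ± 0.69 CPM. Mme, the cell surface peptidase neprilysin (CD10), rose from 48.9 ± 5.12 to 3079 ± 135 CPM.

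Contractile genes fell. Of 38 genes of actin and smooth muscle contraction 31 fell, 14 at least 2-fold (36.8%) and 10 at least 4-fold, with a median of -0.72. Acta2, smooth muscle actin, was at 2961, 3065 and 2734 CPM in the controls and 148, 155 and 133 CPM after treatment (log2 fold change -4.36 ± 0.06 SE, adjusted p = 3.6e-12), and Actg2 fell from 220 ± 12.1 to 2.03 ± 0.122 CPM. Actb and Cald1 fell by 0.51 and 0.48. Fhl2, a LIM protein of muscle and bone, rose from 32.9 ± 0.956 to 132 ± 7.68 CPM. Among smooth muscle markers the late genes Myh11 and Cnn1 had at most 17 counts in any osteoblast library. Other mesenchymal lists were mixed: 20 of 32 stromal genes fell and 11 rose, with Vim, vimentin, from 4308 ± 189.9 to 1265 ± 63.1 CPM and Osr1, a factor of connective tissue, from 49.4 ± 2.12 to 152 ± 4.77 CPM, and 8 of 12 pericyte genes fell, with Cspg4 (NG2) from 33.2 ± 9.31 to 3.17 ± 0.43 CPM. Foxc1, which is in the pericyte list and acts in vessels and in bone, rose from 19.3 ± 1.63 to 164 ± 7.24 CPM.

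Bone genes, in lists that include some of the markers above, were also divided. In the list of mineralization and phosphate handling, 13 of 25 fell and 10 rose, with 10 and 6 at least 2-fold. Enpp1, which makes the mineralization inhibitor pyrophosphate, rose from 0.139 ± 0.0562 to 8.34 ± 0.285 CPM, and Mgp, another inhibitor, fell from 595 ± 28.5 to 199 ± 11.4 CPM. Of 46 osteoblast transcription factors 27 fell and 15 rose, with 16 and 7 at least 2-fold. Nfatc2, a calcium-regulated factor, fell from 5.02 ± 1.13 to 0.221 ± 0.0565 CPM, and Prrx1, a factor of limb mesenchyme, by 0.74. In the osteocyte list of 11, 3 rose and 4 fell at least 2-fold. Dmp1, a mineral-binding matrix protein of osteocytes, rose from 0.185 ± 0.0657 to 67 ± 0.642 CPM, Gja1, the gap junction protein connexin 43, rose from 117 ± 9.14 to 426 ± 25.3 CPM, Tnfrsf11b, osteoprotegerin, fell from 68.8 ± 4.92 to 12.6 ± 1.35 CPM and Tnc from 1925 ± 457 to 93.3 ± 8.87 CPM. Chondrocyte genes had 5 of 13 in each direction, with Hapln1, a cartilage link protein, from 53.2 ± 4.77 to 1.92 ± 0.196 CPM, and Sox9, the master factor of cartilage, from 46.6 ± 5.99 to 102 ± 1.95 CPM. Of 16 Hox genes 3 rose and 5 fell, with Hoxb9 from 35.2 ± 0.977 to 3.39 ± 0.451 CPM and Hoxa10 from 17.9 ± 1.33 to 38.8 ± 4.26 CPM.

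Interferon-stimulated genes rose from low levels. Of 49 tested 32 rose, 19 at least 2-fold (38.8%), with a median of 0.6. Irf1, a transcription factor of the response, was at 34.2, 35.7 and 34.1 CPM in the controls and 124, 126 and 116 CPM after treatment (log2 fold change 1.78 ± 0.04 SE, adjusted p = 9.1e-11), Ifi203, of the interferon-inducible p200 family, went from 0.528 ± 0.0304 to 14.2 ± 0.826 CPM, the guanosine triphosphatase Igtp from 2.04 ± 0.231 to 9.08 ± 0.361 CPM and Ifit3, which binds viral RNA, from 1.43 ± 0.303 to 7.55 ± 0.583 CPM. Ifitm1 and Xaf1 fell by 2.44 and 1.83 on the log2 scale, and Ifitm3 by 0.6. The interferon-stimulated response element, searched as GAAA, any 2 bases and GAAA again, was in 48.8% of the 41 promoters matched to 35 of the 49 genes, 3.44% of all and 2.98% of those of genes tested. It is in capitals, in either orientation, in the stretches below. Of the matched genes considered, they are from the 3 with the largest increase that held it before the start. These genes are Ifi203 at chr1:173942493-173942552 (- strand), Ifit3b at chr19:34607778-34607837 (+ strand) and Igtp at chr11:58199496-58199555 (+ strand).
Ifi203: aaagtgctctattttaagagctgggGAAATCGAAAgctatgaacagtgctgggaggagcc
Ifit3b: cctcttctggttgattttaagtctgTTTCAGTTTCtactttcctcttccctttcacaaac
Igtp: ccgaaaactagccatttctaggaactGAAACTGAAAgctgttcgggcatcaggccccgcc
Ifit3b has a near-identical copy, Ifit3, with the same upstream letters, so that reads may be shared between them. Several of these genes are members of families of similar sequence and their single values are uncertain. Class I antigen presentation rose in 13 of 20, 4 of them at least 2-fold: B2m, the shared light chain, from 384 ± 32.2 to 964 ± 74.5 CPM, H2-T23 from 8.68 ± 0.577 to 30.7 ± 1.87 CPM, and the peptide transporter Tap2 from 22.6 ± 0.398 to 49.4 ± 2.13 CPM. In the list of cytokines and TNF superfamily members 21 of 41 rose and 10 fell, with Kitl, stem cell factor, from 4.66 ± 0.593 to 49.8 ± 1.36 CPM and Tnfrsf1b, the second TNF receptor, from 14.5 ± 1.22 to 156 ± 8.12 CPM, and Il1rl1, the receptor of IL-33, falling from 14.8 ± 1.32 to 0.477 ± 0.104 CPM. The chemokine list of 15 had 7 that rose and 4 that fell. Cxcl12, which holds blood progenitors in marrow, rose from 231 ± 21 to 513 ± 25.9 CPM and Ccl2, which draws monocytes, fell from 6.68 ± 0.672 to 0.387 ± 0.0575 CPM. In the complement list 5 of 18 rose and 9 fell.

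**Figure D3:**
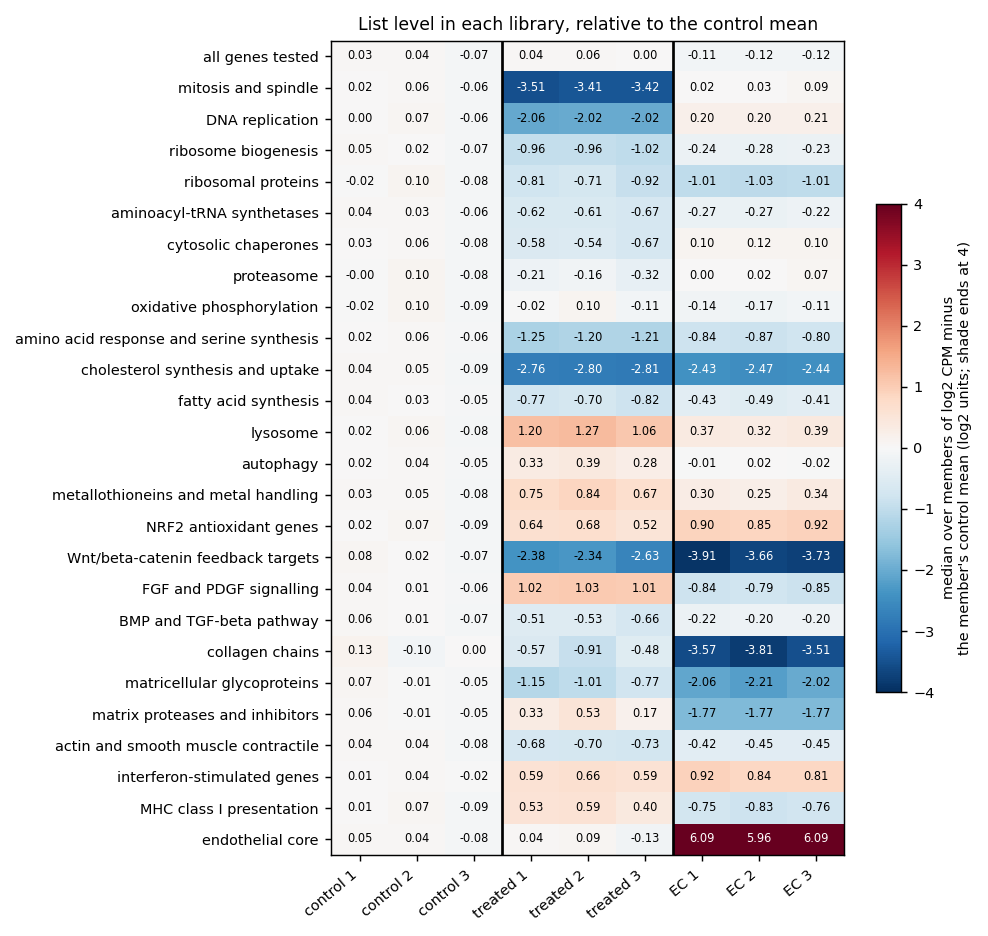
Level of 25 lists and of all genes tested (rows) in each of the 9 libraries (columns). Numbers and colors give the median over list members of log2 CPM minus that member's control mean, in log2 units. The 3 treated libraries agree for each list to within 0.5 log2 units, and the collagen list has the widest spread among them, from -0.91 to -0.48.

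Transporters and channels were divided by family. Of 27 ABC transporters 15 rose, 10 at least 2-fold (37.0%), with Abca1, the cholesterol exporter, from 4.59 ± 0.789 to 28 ± 1.93 CPM, and the related genes Abca8a and Abca8b from 0.169 ± 0.0488 to 14.7 ± 0.543 CPM and 0.802 ± 0.141 to 48.4 ± 2.2 CPM. Potassium channels fell in 12 of 20, 9 at least 2-fold (45%), Kcnk5 from 5.32 ± 0.375 to 0.656 ± 0.192 CPM. Calcium and sodium channels rose in 15 of 29 and fell in 6, with 7 and 5 at least 2-fold. Orai1, the pore of store-operated calcium entry, rose from 8.61 ± 0.736 to 27.7 ± 2.4 CPM, and Cacna1a fell from 87.8 ± 7.34 to 5.55 ± 0.23 CPM. Circadian genes rose in 13 of 20, 4 of them at least 2-fold, with Per2 from 9.23 ± 0.155 to 19.2 ± 0.548 CPM and Bhlhe41 from 7.95 ± 0.663 to 40.9 ± 1.79 CPM, and Nfil3 fell by 1.64. Guidance genes changed in both directions. Of 24 semaphorins, plexins and neuropilins 5 rose and 8 fell at least 2-fold: Sema7a rose from 4.83 ± 0.361 to 171 ± 14.4 CPM and Nrp2, a receptor for semaphorins and VEGF-C, fell from 1303 ± 184 to 107 ± 2.24 CPM. Of 27 ephrins, Slit-Robo genes and netrins 5 rose and 8 fell at least 2-fold, the ephrin-B ligands Efnb1 rising from 136 ± 5.96 to 343 ± 19.3 CPM and Efnb2 falling from 40.9 ± 1.46 to 6.51 ± 0.31 CPM. The medians of both guidance lists turned sign with library size alone.

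The remaining lists are given mainly by their counts. Glycogen genes rose in 11 of 21 and fell in 7, with Gys1, muscle glycogen synthase and a GSK3 substrate, falling by 0.82 and Gbe1, the branching enzyme, rising by 1.41. NAD metabolism rose in 10 of 20, 5 at least 2-fold, and fell in 4, none 2-fold, with Aox1 from 15.3 ± 1.4 to 65.7 ± 7.58 CPM. Integrins had 4 of 18 up and 3 down at least 2-fold, Itgb3 from 19.2 ± 1.15 to 115 ± 1.13 CPM and Itga6 from 9.54 ± 0.376 to 55.3 ± 0.731 CPM among the first, and Itga1 from 46.8 ± 4.14 to 6.93 ± 0.337 CPM among the second. Cadherins and junction genes had 3 of 17 up and 6 down, with Cdh11, the cadherin of osteoblasts and mesenchyme, at 1049, 973 and 900.1 CPM in the controls and 3283, 3170.2 and 2888 CPM after treatment (log2 fold change 1.64 ± 0.06 SE, adjusted p = 1.1e-09) and Cdh2 from 119 ± 10.0 to 30.4 ± 1.33 CPM. Retinoid genes had 4 of 23 up and 8 down, Cyp26b1, which degrades retinoic acid, from 74.5 ± 9.08 to 3.64 ± 0.423 CPM. Neuronal and synaptic genes had 8 of 36 up and 10 down, with Ncam1, an adhesion molecule, from 29.4 ± 3.27 to 111 ± 2.26 CPM and Shank1, a scaffold of synapses, from 57.6 ± 7.99 to 7.71 ± 0.253 CPM. Adipocyte genes had 3 of 12 up and 1 down, skeletal and cardiac muscle genes 2 of 7 and 1, blood and macrophage genes 1 of 6 and 3, and epithelial genes 0 of 4 and 2. Vasoactive genes, a list of caveolae, nitric oxide and prostanoid genes, had 9 of 27 in each direction at least 2-fold (33.3%), with Agt, angiotensinogen, from 5.35 ± 0.482 to 79.2 ± 4.8 CPM and Ptges, prostaglandin E synthase, from 54.5 ± 2.34 to 432 ± 29.1 CPM among those that rose, and Cav1, the coat protein of caveolae, which fell from 183 ± 11 to 55.4 ± 3.93 CPM with 1599.9, 1670.3 and 1502 CPM in ECs. Cavin2, of the same list, rose from 18 ± 1.1 to 95 ± 7.0 CPM with 465, 477 and 470 CPM in ECs. Immediate early genes had 5 of 32 up and 8 down, laminins and basement membrane 4 of 25 and 6, imprinted genes 3 of 22 and 6, glycolysis 4 of 26 and 3, and DNA methylation and Polycomb genes 3 of 48 and 9. Primary cilium genes, a broad list, had 4 of 66 up (6.06%) and 3 down (4.55%) at least 2-fold, both below the background.

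Of 1098 long noncoding and antisense genes tested, 219 (19.9%) rose at least 2-fold and 141 (12.8%) fell, where all genes had 11.1% and 14.0%. The nuclear transcripts Malat1 and Neat1, named after their values were seen, were at 156, 130.3 and 222 CPM in the controls and 731, 608 and 1133 CPM after treatment for the first and at log2 fold changes of 2.25 ± 0.26 and 2.53 ± 0.23. The strand setting of the counting is not given in the sources used here, so reads of an antisense gene and its partner cannot be told apart. Among families defined by symbol, the clustered protocadherins of the β type rose in 14 of 21 with none falling and a median of 0.8, genes named Gpr, orphan receptors, rose at least 2-fold in 9 of 22, and the translation initiation factors named Eif fell in 38 of 53 with a median of -0.48. Genes whose symbols are S followed by a digit, which include the small calcium-binding S100 proteins, rose in 11 of 14 and fell in 3. At least 2-fold changes numbered 9 and 1, with a median of 1.28. Of the S100 proteins, S100a16 and S100a1 rose by 2.47 and 2.76 and S100a11 fell by 1.29, values chosen after they were seen.

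Many of these changes cannot be read as a move toward endothelium, since the ECs lay on the opposite side of the controls or within 1 log2 unit of them, on either side. For each gene changed at least 2-fold, the EC level was set beside the control and treated levels. The EC libraries are compared with the same controls, so the counts are a description of levels. Of 1539 genes that rose, ECs were at least 1 log2 unit lower than the controls for 288 (18.7%), within 1 log2 unit of them for 688 (44.7%), higher for 515 (33.5%), and higher but passed by the treated cells by at least 1 log2 unit for 48 (3.12%). Of 1945 that fell, ECs were higher than the controls for 224 (11.5%), level for 888 (45.7%), lower for 749 (38.5%) and passed for 84 (4.32%).

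By class, the mitosis and replication lists were the clearest case. The EC side of these lists describes the 3 EC libraries, and how far those cells were dividing is not given in the sources used here. In the mitosis list ECs were level for 63 of the 66 genes that fell, and in the replication list level for 38 and higher for 2 of 40. The genes named Hist differed: of the 19 that fell at least 2-fold, ECs were level for 7, lower for 7, and lower but passed for 5. The EC libraries stood at 0.02, 0.03 and 0.09 log2 units from the control mean of the mitosis list. Plk1 was at 71.5, 69.2 and 71.2 CPM in ECs and Rrm2 at 373, 369 and 368 CPM in ECs, at or above the controls. Ribosome biogenesis was level for 20 of 22. For the lysosome list ECs were level for 30 of the 40 genes that rose, and Lamp1 was at 696, 707 and 690 CPM in ECs. They were lower for 1 of the 40 and higher for 9, among them Ctsd, at 456, 444 and 472 CPM in ECs. On the median of this list the EC libraries stood at 0.37, 0.32 and 0.39 log2 units from the control mean, and the treated libraries at 1.2, 1.27 and 1.06. The 6 rising proteases for which ECs were lower than controls included Mmp13 at 1.29, 2.22 and 1.84 CPM in ECs and Mmp14 at 42.4, 41.7 and 42.9 CPM in ECs. The FGF and metal lists were divided. In the FGF list ECs were lower for 5 of the 14 that rose, Spry1 at 1.9, 2.16 and 1.93 CPM in ECs among them. They were level for 1 of the 14, higher for 6, and higher but passed for 2. In the metal list ECs were lower for 3 of 10, with Mt1 at 0.272, 0.389 and 0.505 CPM in ECs and Cp at 12.3, 12.9 and 12 CPM in ECs. They were level for 2 of the 10, higher for 4, and higher but passed for 1.

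For other classes, whose lists hold none of the 10 endothelial markers, the EC level lay on the side of the change. Cholesterol genes that fell were lower in ECs for all 22, and the treated cells lay beyond the ECs by at least 1 log2 unit for 4 of them. Ribosomal protein genes that fell 2-fold were lower in ECs for 12 of 17. ECs were also lower for 12 of the 15 collagens and 9 of the 12 Wnt feedback targets that fell 2-fold, and they were higher for 13 of the 19 interferon-stimulated genes that rose 2-fold. In the list of core endothelial genes, 6 of 31 rose (19.4%) and 4 fell (12.9%) at least 2-fold. ECs were higher than the controls for all 6 that rose and for all 4 that fell. The treated libraries stood at 0.04, 0.09 and -0.13 log2 units from the controls where ECs stood at 6.09, 5.96 and 6.09. In the vasoactive list ECs were higher for 4 of the 9 that rose 2-fold and for 5 of the 9 that fell.

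**Figure D4:**
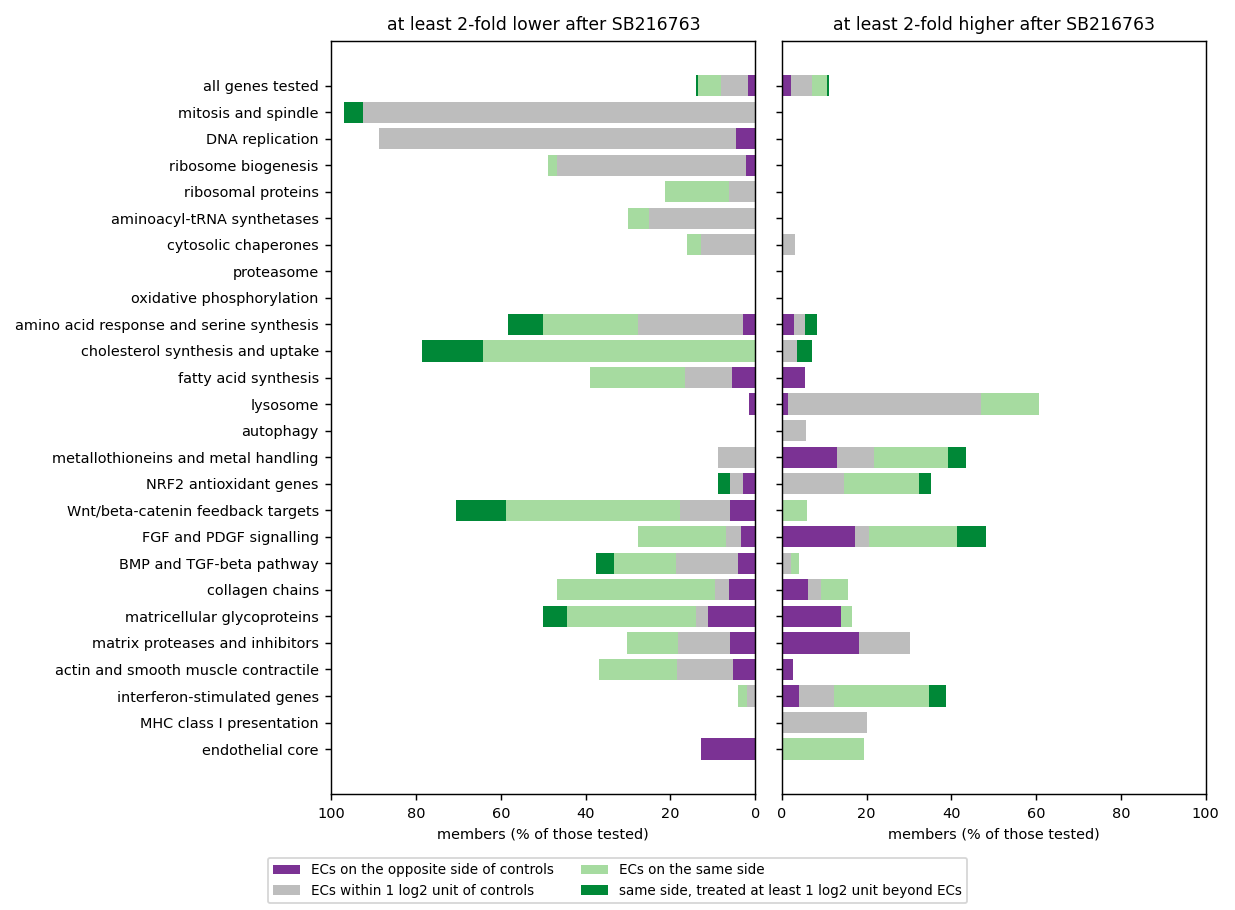
Share of the tested members of each list (rows, all genes at the top) that were at least 2-fold lower (left) or higher (right) after SB216763, in percent, divided by where the EC level lay relative to the controls. Purple marks genes for which ECs lie at least 1 log2 unit on the side opposite to the change, gray those with ECs within 1 log2 unit, and green those with ECs on the same side. The mitosis and replication bars on the left and the lysosome bar on the right are mostly gray, and the cholesterol bar on the left is green throughout.

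The single genes with the largest changes away from the EC level came from several classes. Among those that rose, the largest was Dmp1, at 0.0453, 0.030 and 0.0918 CPM in ECs. Mme was at 15.9, 16.7 and 15.9 CPM in ECs, Abca8a at 0, 0.0899 and 0.0229 CPM in ECs, Arhgap22, a regulator of RAC1, rose from 0.255 ± 0.0712 to 16.6 ± 2.1 CPM with 0, 0 and 0.0229 CPM in ECs, and Gpnmb was at 0.407, 0.21 and 0.206 CPM in ECs. Abi3bp, a matrix protein, rose from 0.423 ± 0.105 to 26.8 ± 0.827 CPM with 0, 0.15 and 0 CPM in ECs. The most abundant in reads with such a pattern and a change of 2- to 4-fold was Cdh11, at 1.47, 2.37 and 1.68 CPM in ECs. Among those that fell, the EC level was higher than the controls for Tspan18, a tetraspanin, which went from 16.2 ± 1.37 to 0.238 ± 0.0331 CPM with 70.8, 72.2 and 74.5 CPM in ECs, for Arhgap29, a GTPase-activating protein, at 216, 220.3 and 201 CPM in the controls and 10.1, 9.87 and 9.25 CPM after treatment with 525, 541 and 507 CPM in ECs, and for Ly6a (SCA-1), a surface protein of progenitors and ECs, at 38.6, 48.3 and 41.9 CPM in the controls and 1.98, 2.15 and 1.95 CPM after treatment with 543, 537 and 526 CPM in ECs. Ankrd1, described with the YAP targets, was at 116, 112 and 109 CPM in ECs. For these genes SB216763-treated osteoblasts differed from ECs more than the controls did. Some of the risers had few counts in both controls and ECs, so that the side on which ECs lay is uncertain for them. Dmp1 had 7, 13 and 6 counts in the controls and 2, 1 and 4 counts in ECs. Abca8a had 14, 8 and 4 against 0, 3 and 1 counts, and Arhgap22 14, 11 and 10 against 0, 0 and 1. Such genes are among those counted above as lower in ECs.

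**Figure D5:**
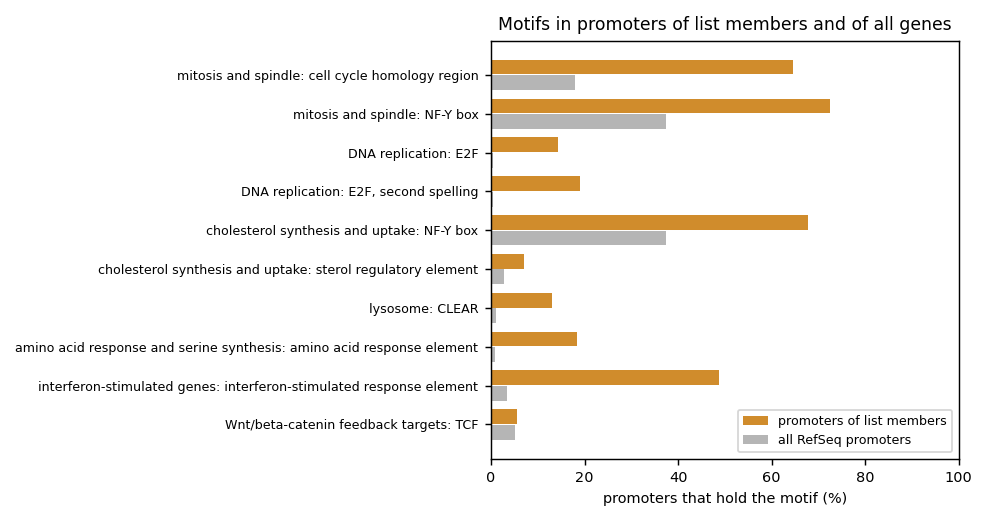
Share of promoters that hold each motif (x axis, percent) for members of the named list (orange) and for all RefSeq promoters of the same length (gray). The interferon response element is in 48.8% of list promoters against 3.44% of all, while the TCF motif is in 5.56% against 5.14%.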

How the data were processed

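Total RNA from control and SB216763-treated MC3T3-E1 cells and from mouse pulmonary ECs was sequenced, with 3 libraries per group. The authors deposited 1 table of raw gene counts with 50686 genes and 9 library columns. Per the submitters' processing notes, STAR version 2.5.3a and the mouse build GRCm38 were used. The annotation release, the counting tool's strand setting and the treatment of multimapping reads are not given in the sources used here. Every column belonged to a sample.

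Groups were taken from the sample labels. The 6 osteoblast libraries were fitted with edgeR 4.0.16 (R 4.3.3) after its expression filter and TMM scaling, by a quasi-likelihood test with Benjamini-Hochberg adjustment over the 13902 genes tested. SE is the absolute log2 fold change divided by the square root of F, and fold changes carry a prior count of 0.125. CPM values are TMM-normalized over the 9 libraries, and log2 CPM has a prior count of 2. A gene was called at an FDR under 0.01, with tiers at 2-fold and 4-fold. Total counts ran from 30990107 to 68946333, and the common biological coefficient of variation was 0.0625. On simulated counts for these libraries and genes, edgeR recovered 95 of 100 genes changed by 1.5 log2 units and 98 of 100 changed by 3. There were 0 false calls, where a call needed the FDR cutoff and at least a 2-fold change. All other genes were unchanged and both directions were equal in number. The check therefore does not cover changes under 2-fold, or the scaling when most genes change.

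The members, the 72 gene lists and the markers were chosen with earlier results of these data known. Lists are described by counts and medians beside those of all genes, with no set test. Members of a list were named where its share of genes changed at least 2-fold was at least 2 times the background in a direction or its median lay at least 0.3 from that of all genes (58 lists), or where it was 1 of 6 broad lists, and the other 8 lists are given by counts. Named genes were the 3 largest changes per list and direction (group mean at least 5 CPM) and the 2 list members of highest mean CPM. Added to these were the most abundant genes of each direction, the largest changes away from the EC level, the most abundant moderate changes, and the markers. Others are said to have been chosen after their values were seen. ECs were called level when within 1 log2 unit of the controls. Promoters are from a RefSeq table of 32851 sequences. Alternatives were limma 3.58.1 voom, DESeq2 1.42.0, other scalings and filters, a fold-cutoff test, all 9 libraries, a replicate term and leaving out each library. Some results on single genes are not reported here.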

Additional observations from a re-analysis of the deposited data

How the results depend on the processing

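Of 6440 values of 460 named genes under the alternatives, 6338 kept their direction and their side of the cutoff, 66 lost the call, 33 gained one and 3 changed sign. With library size only, the log2 fold change of Atf5 was 0.0298, the log2 fold change of Pdia3 0.0594 and the log2 fold change of Pdpn 0.21, each with the sign turned. The chemokine list, with a median log2 fold change of -0.31, turned to 0.22 with at least 10 counts, 0.15 without control replicate 1 and 0.06 without treated replicate 2, and the cause was not tested. With library size only, 10 lists changed the sign of their median, and 2225 genes were higher and 1510 lower at least 2-fold in place of 1539 and 1945. Testing against the fold cutoff itself left 944 genes at least 2-fold higher and 297 at least 4-fold higher, since this test asks more of each gene, with 1389 and 605 lower. Without any filter 2392 genes fell at least 2-fold, with 26783 tested. Leaving out 1 library gave between 1482 and 1582 genes at least 2-fold higher, 1913 and 2008 lower, 523 and 562 at least 4-fold higher, and 854 and 899 lower. With ECs called level within 2 log2 units, the genes that rose divided into 172 with ECs on the opposite side, 1046 level, 315 on the same side and 6 passed, and those that fell included 129 with ECs on the opposite side and 19 passed, since a wider band holds more genes.

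Control and treated libraries share replicate numbers. Departures from the group mean, correlated between the control and the treated library of one number, gave 0.0027, 0.174 and 0.123, so the numbers do not pair the libraries by the rule used (over 0.1 in each pair), and not every library correlated best with its own number. A fit with the replicate number as a block gave 1538 genes at least 2-fold higher and 1941 lower, of which 1515 and 1930 were also called without the block, and 506 and 849 at least 4-fold. Depth limits small differences in genes of a few counts per library, such as the endothelial markers in osteoblasts, of which Cdh5 had a log2 fold change of 0.0028 ± 0.25 (SE). All p-values rest on 3 libraries per group of 1 cell line.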
